A study of Ginkgo biloba with 9 samples.

Results

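Of the 41309 genes listed for leaves of Ginkgo biloba grown at 3 planting densities, 117 were at an FPKM of exactly 0 in all 3 libraries of at least one density and at 0.3 FPKM or more in each of the 3 libraries of at least one other density. FPKM counts the fragments of a gene per kilobase of its length, relative to the size of the library. These on-off genes were chosen on the measured values themselves, so the contrast between a silent and an expressed density is given below as a description, without a test. They made up 0.428% of the 27348 genes above 0 in any library, and 3.85% of the 3036 genes that were at 0 throughout one or 2 densities and above 0 elsewhere. The leaves came from 2-year-old trees of the cultivar Fozhi in a leaf-harvest nursery. The control density (CK) was 20 plants per square metre, the moderate density (MD) 40 and the high density (HD) 80, with 3 libraries each. All groups shared the cultivar, the tree age and the nursery. The labels do not say whether libraries of one density came from separate trees or from one pool, so the spread between them may be technical, and the density cannot be told apart from the plants that were grown at it.

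Ginkgo is a gymnosperm whose leaves are harvested for their flavonol glycosides and terpene lactones. In seed plants, crowding is known to shade the leaves and to lower the ratio of red to far-red light, which is perceived by phytochromes and changes the transcription of many leaf genes. A gene at 0 in an RNA library is one to which no read was assigned, which can mean no transcript or a transcript below what the depth could show. In a bulk leaf sample, fewer cells of an expressing type and less RNA per cell cannot be told apart. The table pairs no identifier with a gene name, so nothing is said here of what the genes encode. For the same reason the lists of pathway genes and leaf markers were not matched, and the labelled tissue was not checked against markers.

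The reads behind each value were recovered from the steps of the FPKM, as described under the processing. Per library, 14703244 to 22445296 reads fell in genes. By density, the 3 libraries together held 62000634 reads in CK, 51406454 in MD and 51780476 in HD. Over all genes, 1499 were at 0 throughout CK and above 0 elsewhere, against 1666 for MD and 1450 for HD. On-off genes were 55 of those silent in CK (3.67%), 43 of those silent in MD (2.58%) and 33 of those silent in HD (2.28%). The control density had the most reads and also the most on-off genes at 0. By counting error alone, 0 reads in a single library are compatible with up to 3 expected reads in it.

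Most on-off genes were silent at a single density. Of the 117, 42 were silent in CK alone, 32 in MD alone and 29 in HD alone. Another 14 were silent at 2 densities and so were detected at only 1 of them: 10 in HD, 3 in MD and 1 in CK. Counted by pairs, 32 genes were silent in CK and expressed in MD, and 41 were silent in CK and expressed in HD. In the other direction, 18 genes expressed in CK were silent in MD and 25 were silent in HD. Between the denser plantings, 38 genes were silent in MD and expressed in HD, and 15 were expressed in MD and silent in HD. In each pair, more genes were silent at the lower density and expressed at the higher than the reverse. This order held under every other threshold and with each library left out, narrowly for CK and MD at a threshold of 0.1 FPKM (60 against 59 genes) and without MD2 (39 against 37 genes). Those settings apply the same rule to the same values and largely share their genes, so they are no independent support for the order. Leaving out a library that belongs to neither density of a pair cannot change its counts. The pair counts share libraries, and a gene can stand in 2 pairs.

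**Figure D1:**
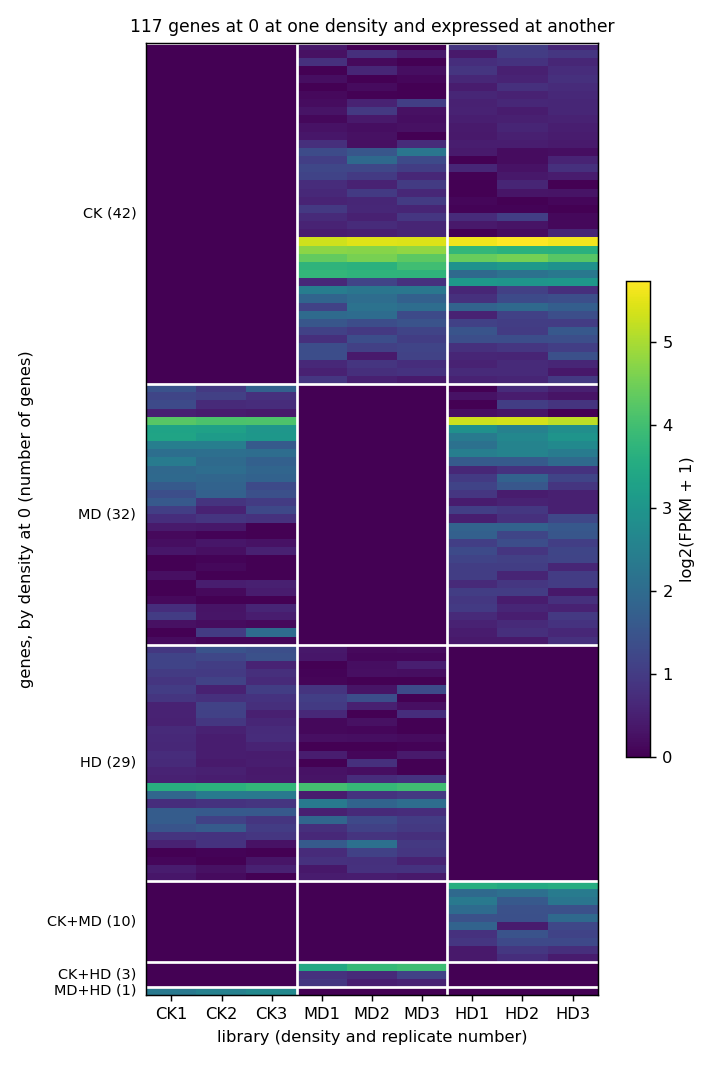
Level of each of the 117 on-off genes (one line per gene) in the 9 libraries, as log2(FPKM + 1); white lines separate the densities and the blocks of genes by the density at which they were at 0. The blocks at 0 follow from how the genes were chosen; most expressed values are dark, since 62 of the 117 genes had a mean below 1 FPKM at their highest expressed density.

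**Figure D2:**
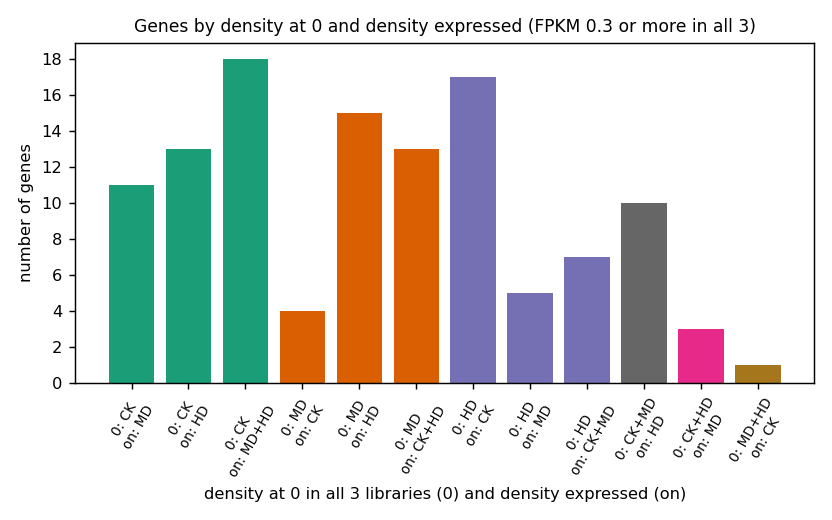
Number of on-off genes (vertical axis) by the density at 0 in all 3 libraries and the density or densities with 0.3 FPKM or more in all 3 libraries (horizontal axis). The tallest bar is the 18 genes at 0 in CK and expressed in MD and HD, followed by the 17 at 0 in HD that reached 0.3 FPKM in every library of CK but not of MD.

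The on-off genes were mostly of low level. At the expressed density with the higher mean, the mean ranged from 0.346 to 49.5 FPKM, with a median of 0.901 FPKM. In 62 genes it was below 1 FPKM, in 55 it was at least 1, in 21 at least 3 and in 9 at least 10 FPKM. The reads summed over the 3 libraries of that density ranged from 3 to 2311, with a median of 44. In 56 genes each library of that density held at least 10 reads, and in 18 at least 50. In 61 genes some library held fewer than 10 reads, and in 12 fewer than 3. The shortest recovered length among them was 63 nt, in Gb_37535, which met the rule with 1 recovered read in each CK library. Its true reads and length may be a multiple of these. The mean at the expressed density was set against a level of 3 reads in each library of the silent density. By counting error, 0 reads in a single library still allow that level, while 0 reads in all 3 libraries together allow less. The mean was above that level in 110 genes, over 3 times as high in 76 and over 10 times as high in 30. In 7 genes it was at or under that level, and no fold is given for them.

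**Figure D3:**
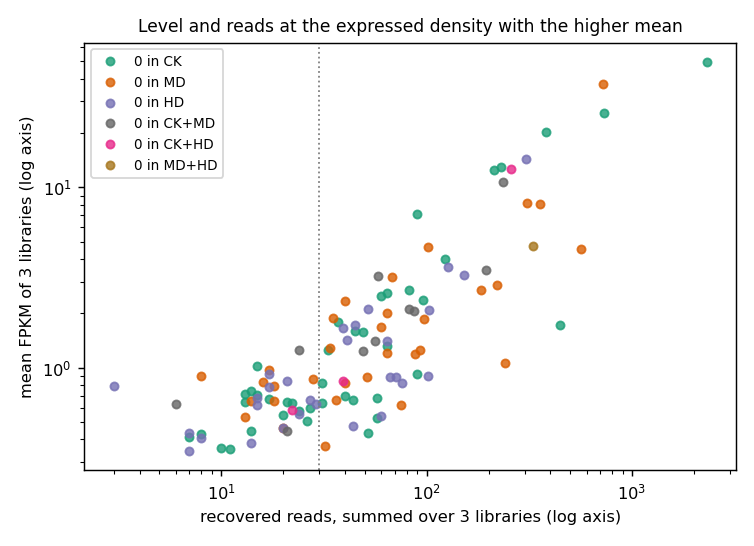
Mean FPKM (vertical, log axis) against recovered reads summed over 3 libraries (horizontal, log axis), each at the expressed density with the higher mean, for the 117 on-off genes coloured by the density at 0. The dotted line marks 30 reads; 44 genes lie under it and 73 at or over it, and the points with the highest levels also have the most reads.

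Around the threshold the values were close together. The genes just inside had their lowest expressed library at 0.301, 0.301 and 0.303 FPKM, each from 2 reads. The genes just outside stood at 0.292, 0.292 and 0.2999 FPKM, from 4, 1 and 2 reads. In 24 on-off genes the lowest expressed library lay between 0.3 and 0.4 FPKM, and 43 further genes had it between 0.2 and 0.3 FPKM.

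Among the genes silent in CK, the highest level was that of Gb_17748. It was at 0 FPKM in all 3 CK libraries, at 39.0, 42.9 and 42.4 FPKM in MD and at 47.9, 52.2 and 48.3 FPKM in HD. The denser plantings held 1860 and 2311 reads of it, against none in CK, and every HD library lay above every MD library. At 49.5 ± 2.34 FPKM in HD (SD, n = 3), it was at least 288-fold higher than 3 reads in each CK library would give. MD to HD was the contrast that the on-off rule did not use, but the gene was named for its levels in both. There the gene rose by 0.25 on the log2 scale with an SE of 0.069 (limma, adjusted p = 0.0146). Without MD1 it was 0.21 (adjusted p = 0.0686), without HD2 0.21 (adjusted p = 0.0710) and with a pseudocount of 0.1 it was 0.25 (adjusted p = 0.0537), so the call was lost at a fold change of like size. With single libraries left out the fold change lay between 0.21 and 0.27.

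Gb_25342, also silent in CK, was at 25.5, 24.8 and 26.6 FPKM in MD and at 12.8, 11.7 and 11.5 FPKM in HD. Its MD libraries all lay above its HD libraries. It fell from MD to HD by 1.03 on the log2 scale (SE 0.083, adjusted p = 3.25e-06). The gene was named for its level in MD, and this naming can favour a fall. Gb_16659 had nearly equal levels at the denser plantings, with 19.4, 22.4 and 18.5 FPKM in MD and 20.1, 22.3 and 18.0 FPKM in HD. These groups overlapped, and the log2 fold change was 0.00 with an SE of 0.10 (adjusted p = 0.988), which leaves a small difference undetectable at this spread.

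The strongest gene silent in MD alone was Gb_25181, which was read at 18.0, 16.3 and 16.6 FPKM in CK and at 38.0, 40.0 and 34.8 FPKM in HD. No read was assigned to it in the 3 MD libraries, against 363 in CK and 719 in HD. The level in HD was at least 74.9-fold above 3 reads in each MD library. From CK to HD it rose by 1.10 on the log2 scale (SE 0.082, adjusted p = 1.16e-06). Gb_25181 was named for its levels in CK and in HD, so the naming was not independent of this contrast. Gb_35146, the second by level in CK, was at 9.02, 8.66 and 7.00 FPKM in CK and at 6.33, 4.77 and 6.11 FPKM in HD, with 0 in MD. All its HD libraries lay below its CK libraries, and the change from CK to HD was -0.46 on the log2 scale (SE 0.13, adjusted p = 0.0134). That call was lost without CK1, where the change was -0.39 (adjusted p = 0.0555), and without HD2, where it was -0.35 (adjusted p = 0.0564). Naming the gene for its level in CK can also favour such a fall.

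For genes silent in HD, the highest level was that of Gb_37528. It stood at 11.3, 11.9 and 12.9 FPKM in CK and at 15.1, 13.2 and 14.7 FPKM in MD, from 302 and 304 reads. Although each MD library was above each CK library, the log2 fold change of 0.24 (SE 0.094) did not pass the threshold (adjusted p = 0.0741). MD exceeded 3 reads in each HD library at least 35.4-fold.

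The genes detected at a single density are represented by 3 identifiers. Gb_39543 was detected in MD only, at 10.1, 13.3 and 14.4 FPKM (12.6 ± 2.27, SD, n = 3) from 258 reads. Gb_20126 was detected in HD only, at 11.2, 10.2 and 10.6 FPKM (10.7 ± 0.485) from 234 reads. Gb_20167 was detected in CK only, at 3.95, 4.77 and 5.40 FPKM (4.71 ± 0.723) from 330 reads. The levels exceeded what 3 reads in each library of the silent densities would give at least 31.2-fold, 26.6-fold and 31.3-fold. Gb_20167 was the only on-off gene detected in CK alone. The 10 genes detected in HD alone had a median of 57 reads there and means between 0.448 and 10.7 FPKM. Their coefficients of variation in HD ranged from 4.56%, in Gb_20126, to 77.4%, with a median of 35.0%. The highest was that of Gb_41549, singled out after its values were seen, with 35, 5 and 16 reads.

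**Figure D4:**
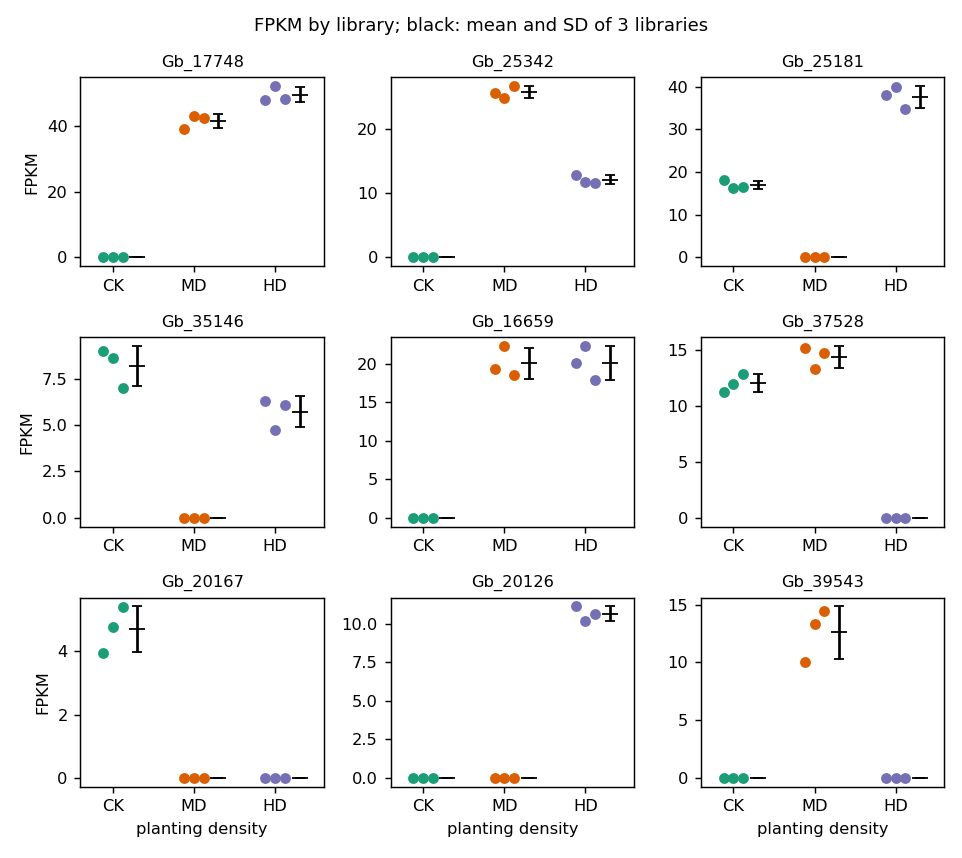
FPKM (vertical axes, linear) of the 9 on-off genes with the highest levels by pair of densities, by planting density (horizontal); coloured points are single libraries, and black marks and bars are the mean and SD of 3 libraries. In each panel the libraries of the silent density are all at 0 and the others lie well above it; Gb_16659 is level between MD and HD, while Gb_25342 is higher in MD and Gb_25181 higher in HD than in CK.

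For the 103 genes silent at 1 density, the third density was not fixed by the rule beyond not being silent. In 38 of them both other densities reached 0.3 FPKM in every library. In the other 65 the third density had some reads but did not reach the threshold in all libraries. This intermediate density was MD in 30 genes, CK in 20 and HD in 15. Its mean was 24.8% of that at the expressed density at the median, with a median of 5 reads over 3 libraries, and in 16 of the 65 genes it was under 10%. For instance Gb_31749, named after its values were seen, was silent in MD, had a single read in CK2 and was at 1.21, 1.11 and 1.26 FPKM in HD. The intermediate density could also exceed the expressed one where its libraries were unequal. Gb_39003, likewise picked afterwards, was silent in MD, was at 0.355, 0.697 and 0.546 FPKM in HD, and was at 0, 1.01 and 3.07 FPKM in CK1, CK2 and CK3, from 0, 10 and 28 reads.

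The contrast between the expressed densities did not choose the 38 genes expressed at both, and it was tested with limma across all 22423 genes that reached 0.3 FPKM in at least 3 libraries. All 117 on-off genes passed this filter through the densities at which they were chosen to be high. Of the 18 genes silent in CK, 9 differed between HD and MD, where 39.3% of all tested genes did. The called genes went both ways, with 2 higher and 7 lower in HD, against 18.6% and 20.7% of all tested genes. Of the 13 genes silent in MD, 8 differed between HD and CK (61.5%), beside 47.4% of all tested genes. In HD, 2 were higher and 6 lower, beside 23.2% and 24.2% of all tested genes. Without CK1 the number was 5. Of the 7 genes silent in HD, 3 differed between MD and CK (42.9%), beside 33.1% of all tested genes. In MD, 1 was higher and 2 were lower, beside 16.4% and 16.7% of all tested genes. Over the 3 contrasts, the called genes numbered 20 of 38, and 15 of the 20 were lower at the denser of the 2 plantings. The members are few and their shares were not tested against those of all genes.

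The sizes of these changes were larger at the median than over all tested genes. The 38 genes were not matched to all tested genes for level, length or spread, and the part of these was not tested. The median absolute log2 fold change was 0.30 for HD against MD in the 18 genes silent in CK, where it was 0.22 over all tested genes. For HD against CK in the 13 genes silent in MD it was 0.46, beside 0.26. For MD against CK in the 7 genes silent in HD it was 0.44, beside 0.19. The libraries of the contrasted densities did not overlap in 10 of 18, 7 of 13 and 4 of 7 genes, beside 50.2%, 56.4% and 45.8% of all tested genes. Low levels limit these values, since only 18 of the 38 genes had at least 10 reads in all 6 libraries. In the model each gene's spread is taken over all 9 libraries, and the 3 silent ones add no spread. They can thus lower the SE and the adjusted p of on-off genes. This holds for the single genes above and for the shares called beside those of all tested genes. A fit on the contrasted densities alone, which leaves the silent libraries out, called 9, 8 and 3 genes, the same ones as the main fit. The share of all tested genes called in that fit was not counted.

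On the log2(FPKM + 1) scale, the largest rise and the largest fall among these 38 genes were in genes silent in CK. Gb_05789, named after its values were seen, was at 0.582, 1.27 and 0.773 FPKM in MD and at 7.33, 6.97 and 7.14 FPKM in HD, from 11 and 90 reads. It rose from MD to HD by 2.14 on the log2 scale (SE 0.14, adjusted p = 6.46e-07) and so was at 0, low and higher at the 3 densities in turn. Gb_22340, picked in the same way, was at 12.9, 12.2 and 12.3 FPKM in MD and at 2.90, 3.48 and 3.90 FPKM in HD. It fell from MD to HD by 1.61 on the log2 scale (SE 0.11, adjusted p = 9.80e-07), and no MD library overlapped with an HD library. By the ratio of mean FPKM, the lower density stood at 12.2% of the higher in Gb_05789 and at 27.5% in Gb_22340. That ratio was lower than in Gb_22340 in some genes of smaller level, such as Gb_33236, also picked afterwards, which was silent in HD and in MD stood at 19.1% of its level in CK. In genes not called, the log2 fold changes lay between -0.29 and 0.32 for HD against MD, between -0.38 and 0.30 for HD against CK and between -0.44 and 0.24 for MD against CK.

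**Figure D5:**
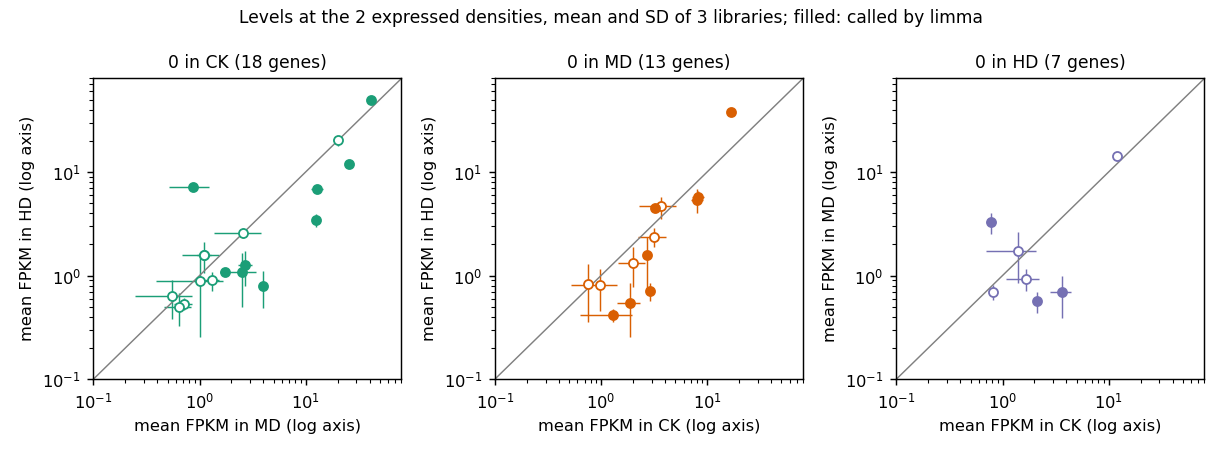
Mean FPKM at one expressed density against the other (both log axes) for the 38 genes at 0 at the remaining density, in 3 panels by the density at 0; bars are the SD of 3 libraries, filled points are called by limma at an adjusted p under 0.05, and the grey line marks equal levels. Of the 20 filled points, 15 lie below the line, where the denser planting is lower.

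Within the expressed density, the libraries of on-off genes spread more than those of all genes in the same broad classes of level. All genes include the on-off genes here, and levels were not matched within a class. The median coefficient of variation at the expressed density with the higher mean was 27.1% over the 117 genes. By level, it was 33.0% for the 62 genes with means below 1 FPKM, where it was 26.4% over all genes and densities in that range. For the 34 genes from 1 to 3 FPKM it was 28.3%, beside 19.3%, and for the 21 genes above that it was 12.6%, beside 7.21% for all genes from 3 to 60 FPKM. The choice of the higher of 2 expressed densities and the demand on the lowest library both touch this spread, and it is a description only. The on-off genes were also shorter by their recovered lengths. Lengths were recovered together with the reads, so a length is too short where the true reads are a multiple. On-off genes have fewer values above 0 to fix it. Their median length was 603 nt, against 1146 nt for the 21587 genes that reached the threshold in each library of some density. In the 3 classes of level the medians were 685.5, 588 and 414 nt for on-off genes, and 1117, 1130 and 1269 nt for all expressed genes. At a given FPKM a shorter gene is represented by fewer reads, and so a given FPKM is less precise in it. A value of exactly 0 is also reached more readily in a shorter gene. The rule itself can therefore favour short genes, and the difference in length is not independent of it. The part of length and of read number in the wider spread was not tested. Of the on-off genes, 95.7% had a length that was a multiple of 3, beside 86.9% of the genes above 0 in every library.

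The rule did not use the number in the identifier. On-off genes with consecutive numbers formed 6 pairs, with 12 genes, and in all 6 pairs the genes shared a silent density. Of the 230 listed identifiers 1 step away from an on-off gene, 5.22% were on-off genes themselves, where on-off genes are 0.283% of all listed identifiers. Whether consecutive numbers mean neighbouring genes is not stated in the sources used here, and reads that near-identical genes share could not be checked. These pairs were noticed in the data and carry no test.

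Gb_37527 and Gb_37528 were both silent in HD, the first at 1.38 ± 0.683 FPKM in CK and 1.73 ± 0.892 in MD (SD, n = 3), the second at the levels given above. Gb_37535 and Gb_37536 were silent in HD too, with means of 0.789 and 0.680 FPKM in CK, from 3 and 15 reads. Gb_12661 and Gb_12662 were silent in HD, lower in MD (0.0965 and 0.140 FPKM) and highest in CK (0.627 and 1.41 FPKM). Their lengths were equal, at 747 nt. Silent in MD were Gb_04749 and Gb_04750, at 2.69 and 2.02 FPKM in CK and 1.57 and 1.33 FPKM in HD. Gb_05428 and Gb_05429 were likewise silent in MD, at 0.971 and 3.68 FPKM in CK and 0.803 and 4.64 FPKM in HD. Gb_08201 was silent in CK and MD and Gb_08202 in CK, with 2 reads in MD. In HD these genes were at 3.48 and 0.578 FPKM. The order against the shared silent density follows from how the genes were chosen, and differences between the expressed densities were within the spread for several of these genes, such as Gb_37527 (adjusted p = 0.596 for MD against CK) and Gb_04750 (adjusted p = 0.117 for HD against CK).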

How the data were processed

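RNA was sequenced from leaves at 3 planting densities with 3 libraries each, per the labels. The authors deposited FPKM per gene and library in a single table, as its header says. CASAVA 1.8, TopHat2 and RSEM are listed, with no role given, in the submitters' processing notes. The genome build is not given in the sources used here. Each of the 9 value columns matched 1 sample by its title.

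The on-off genes, gene pairs and tests were chosen with earlier results of these data known. Whole reads were recovered from the FPKM steps: libraries were scaled by ratios of genes with equal reads (450 to 644 genes per library), and the smallest whole numbers that fitted a gene's values and gave a whole length were taken, within 0.001 reads plus rounding. This gave whole reads for all 27348 genes above 0, on-off genes included. The reads of 4 on-off genes were raised to make the length whole. True reads, and the lengths with them, may be a multiple of those given. The recovered library sizes of the FPKM were 0.972 to 1.04 times the summed reads. The summed FPKM differed with density, at 996238 to 1001236 in HD and 1082067 to 1097980 in CK and MD. This can touch the contrasts with HD. Among genes silent in CK, MD and HD, upper-quartile scaling called 9, 8 and 3, as the main fit did. A limma-voom fit on the recovered reads called 9, 7 and 3.

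Tests used limma 3.58.1 (R 4.3.3) on log2(FPKM + 1) with a trend of variance on level and one model over 9 libraries, for genes at 0.3 FPKM or more in at least 3 libraries, with Benjamini-Hochberg adjustment over all 22423 genes. Such fold changes understate changes of low genes. The named genes were the 2 highest in each direction of each pair of densities, 9 identifiers in all. Their level at an expressed density is 1 side of the contrast tested, so the naming was not independent of it. Other genes are marked as picked afterwards. Scripts were tested on simulated data. Intervals of 0 reads cover counting error only, since PCR reads are not independent molecules.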

Additional observations from a re-analysis of the deposited data

How the results depend on the processing

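The number of on-off genes follows the threshold. With at least 0.1 FPKM it was 281, with at least 1 FPKM it was 44, all of them among the 117, and with at least 10 recovered reads in each library it was 60, of which 58 were among the 117. By pair the counts were as follows, for 0.1 FPKM, 1 FPKM and 10 reads in turn. Silent in CK and expressed in MD were 60, 15 and 16 genes, and silent in CK and expressed in HD 83, 14 and 21. Silent in MD and expressed in CK were 59, 11 and 13, and silent in MD and expressed in HD 83, 15 and 21. Silent in HD and expressed in CK were 62, 6 and 11, and silent in HD and expressed in MD 45, 4 and 6. Allowing a value below 0.1 FPKM in 1 of 3 silent libraries gave 156 genes, with 28 silent in MD and expressed in CK and 23 silent in HD and expressed in MD.

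Leaving out a library loosens the rule, and gave 141 to 164 genes, with ranges by pair, in the order above, of 32 to 41, 41 to 58, 18 to 37, 38 to 66, 25 to 37 and 15 to 27. Counts moved by over 1.5 times for genes silent in MD and expressed in CK without CK1 or MD1 (31 each), MD2 (37) or MD3 (28), for those silent in MD and expressed in HD without MD2 (66), and for those silent in HD and expressed in MD without MD2 or MD3 (24 each), HD1 (27), HD2 (26) or HD3 (25). The median coefficient of variation at the expressed density was 37.7% at 0.1 FPKM, 15.0% at 1 FPKM and 17.8% at 10 reads, alternatives chosen after seeing the data, and 23.9% to 27.1% with single libraries left out.

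Called genes among those expressed at both other densities numbered 6 to 9 (silent in CK), 5 to 8 (silent in MD) and 3 to 4 (silent in HD) with single libraries left out, and 6, 6 and 3 with a pseudocount of 0.1. The shares of all tested genes called under these settings were not counted. The replicate block gave 9, 8 and 3, the same genes as without it, and so changed no call. Deviations correlated between -0.01 and 0.06 for equal numbers, and no label pairs them, so the numbers were not treated as pairs. Of 102 recomputed fold changes of the 6 named genes tested, 97 kept their status. For Gb_16659 and Gb_37528 this means that they stayed uncalled. The fold changes without a library of the silent density were unchanged by design. The 5 lost calls were all in Gb_17748 and Gb_35146. Depth limits the 61 genes with under 10 reads in some library of the expressed density with the higher mean. In further genes the other expressed density had such libraries, as in Gb_05789 with 2, 6 and 3 reads in MD.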
